A study of Rattus norvegicus with 26 samples.

Results

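The protein components of the cytosolic ribosome were followed at the mRNA level in rats whose daily feed portion was made smaller step by step. The genes were chosen by name: the single annotated symbol of the probe set is Rpl or Rps followed by a digit, or Rplp0 or Rpsa, with ribosomal S6 kinases, pseudogenes and symbols ending in l1 left out. This gave 45 of the 14217 genes with a symbol of their own on the array, 30 named for the large subunit and 15 for the small subunit, each read by the brightest of its probe sets. Of these, 42 are core ribosomal proteins and 3 are relatives that the naming rule keeps, namely Rpl3l, Rps27l and Rps4y2. A further 36 probe sets carry several symbols, at least one of them ribosomal, and are not counted as members because they cannot be assigned to 1 gene.

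All animals were inbred male Long-Evans (Turku/AB) rats aged 11 to 15 weeks and every one, controls included, had corn oil (4 mL/kg) on day 0. Inguinal white adipose tissue and liver at day 4 came from 4 control and 4 restricted rats each, and liver at day 10 from 5 control and 5 restricted rats. The short regimen gave 18 g of pelleted feed on day 0, then 12, 9 and 6 g on days 1 to 3. The long regimen let the rats eat freely on day 0 and gave 16 g of powdered feed on day 1, 14 g on day 2, 11 g on day 3, 8 g on day 4, 6 g on day 5, 4 g on days 6 and 7, 2 g on day 8 and 1 g on day 9, so the liver sets differ in the form of the feed as well as in length. Each array holds RNA of 1 rat, and the labels do not settle whether a rat gave both a liver and an adipose array at day 4.

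A ribosome is built from ribosomal RNA and one copy of nearly every ribosomal protein, so cells keep the mRNAs of these proteins in step with each other. In mammals most of these mRNAs start with a C followed by a run of pyrimidines, the terminal oligopyrimidine (TOP) element, and their translation is switched on by the nutrient sensor mTORC1 and off when nutrients or insulin are short. The liver is known to lose ribosomes during fasting and to make them again on refeeding. Array values report mRNA level only, and neither translation nor ribosome number was measured.

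RefSeq promoter sequences (build GRCr8) were matched by gene ID for 38 of the 45 genes. The stretches below run from 35 bases before the annotated start through the first 25 bases from it, on the strand of the gene, for the 6 genes with the largest rise in liver at day 10 and for Rps16, Rps24 and Rpl41, which also averaged 11 or more and were not called there. Capitals mark a run of at least 5 pyrimidines that begins with C and holds TTTCC or, where no such run does, the longest run of this kind.
Rpl12 (chr3:36661905-36661964, plus strand): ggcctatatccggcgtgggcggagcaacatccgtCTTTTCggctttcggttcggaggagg
Rpl5 (chr14:1995201-1995260, minus strand): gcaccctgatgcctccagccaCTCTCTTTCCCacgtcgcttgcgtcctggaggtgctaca
Rpl24 (chr11:58128381-58128440, minus strand): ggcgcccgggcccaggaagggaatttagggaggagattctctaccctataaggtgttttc
Rpsa (chr8:128728844-128728903, plus strand): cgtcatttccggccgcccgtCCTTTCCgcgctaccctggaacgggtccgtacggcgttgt
Rpl3 (chr7:113507966-113508025, minus strand): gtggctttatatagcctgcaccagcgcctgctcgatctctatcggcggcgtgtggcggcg
Rps15 (chr7:10068091-10068150, minus strand): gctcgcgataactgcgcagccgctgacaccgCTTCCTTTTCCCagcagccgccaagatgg
Rps16 (chr1:92770623-92770682, plus strand): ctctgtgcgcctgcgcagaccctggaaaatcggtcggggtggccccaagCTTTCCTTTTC
Rps24 (chr16:96482-96541, plus strand): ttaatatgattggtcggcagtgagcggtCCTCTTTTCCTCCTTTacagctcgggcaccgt
Rpl41 (chr7:1563473-1563532, minus strand): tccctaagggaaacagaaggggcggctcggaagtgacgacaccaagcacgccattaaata
The annotated start is the first base after the initial 35, and it falls within the capitals in Rpl12, Rps15 and Rps24. The true start may differ from the annotated one. The windows of Rpl24, Rpl3 and Rpl41 hold no such run. Within 25 bases on either side of the start, TTTCC on the strand of the gene was found in 17 of 38 members (44.7%) and in 7.65% of 18999 promoters. The longer string CTTTCC, which contains it, was found in 11 members (28.9%) against 2.52% of promoters. An unbroken run of 8 or more C or T beginning with C was found in 25 members (65.8%) against 14.8%. Over the full window of 300 bases and both strands, CCGGAAG, a string typical of ETS family binding sites, was present in 8 members (21.1%) and in 11.2% of promoters, and AAGATGGC, a string typical of YY1 sites, in 4 members (10.5%) and in 3.92%. TTTCC was present in 12 of the 28 matched genes that rose in liver at day 10 and in 5 of the 10 that were not called. These matches describe letters near annotated starts and are not tests of regulation.

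The arrays of each set had similar overall levels, with a median log2 value of 4.01 to 4.11 in adipose tissue and 3.16 to 3.32 in the liver sets. The tissue labels were borne out by marker genes: the summed linear level of 11 adipocyte markers was 193534 to 233746 in adipose arrays and 993 to 3261 in liver arrays, and that of 11 hepatocyte markers was 333434 to 376377 in liver and 9196 to 24867 in adipose arrays. The difference between the 3′ and 5′ probe sets for GAPDH, a measure of RNA integrity, overlapped between groups in every set, with means of 0.68 in control and 0.65 in restricted rats in adipose tissue, 0.24 and 0.27 in liver at day 4, and 0.41 and 0.44 at day 10 (log2). The same difference for hexokinase was larger in adipose tissue, with means of 3.91 in control and 3.82 in restricted rats. In the liver sets its group means were -0.28 to -0.24, and the groups overlapped in every set. Of the members, 38 had a mean log2 value of at least 11 in every set. Rpl28, Rps13, Rpl30, Rpl3l and Rps4y2 had a mean under 5 in all 3 sets and Rpl39 in both liver sets, which left 39 members above this level in liver and 40 in adipose tissue. Levels of different probe sets were used only to sort bright from dim ones, not to rank genes by expression, and all changes below are log2 differences of restricted minus control rats with their standard error (SE), called at a limma p-value adjusted over all 31042 probe sets of less than 0.05.

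In restricted livers at day 10 most ribosomal protein mRNAs were higher, by small amounts. Of the 45 members 32 rose and 0 fell, 23 of the 30 large-subunit and 9 of the 15 small-subunit genes, against a background of 5.82% of all probe sets called higher and 5.36% called lower. Among the bright members the change ran from -0.017 for Rpl41 to 0.40 for Rpl12. Over all 30 large-subunit and all 15 small-subunit genes, dim ones included, the medians were 0.22 and 0.14, a difference that was not tested. The median change of the members was 0.20, or 15.0%, where the median over all probe sets was 0.0031. Bright probe sets are called more often than dim ones on these arrays, so a background of like brightness was added after the data had been seen: among 1219 probe sets averaging 11 or more, 32.2% were called higher and 23.8% lower with a median change of 0.043, while of the 38 members at this level 32 (84.2%) were called higher, with a median change of 0.22. At an unadjusted p under 0.05, 35 members (77.8%) were higher and 0 lower, against 20.0% of all probe sets in either direction. Of the 38 bright members 34 (89.5%) passed that mark, against 72.4% of the bright probe sets in either direction. In bulk tissue, more of these mRNAs per cell and a larger share of RNA from cells rich in them cannot be told apart.

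**Figure D1:**
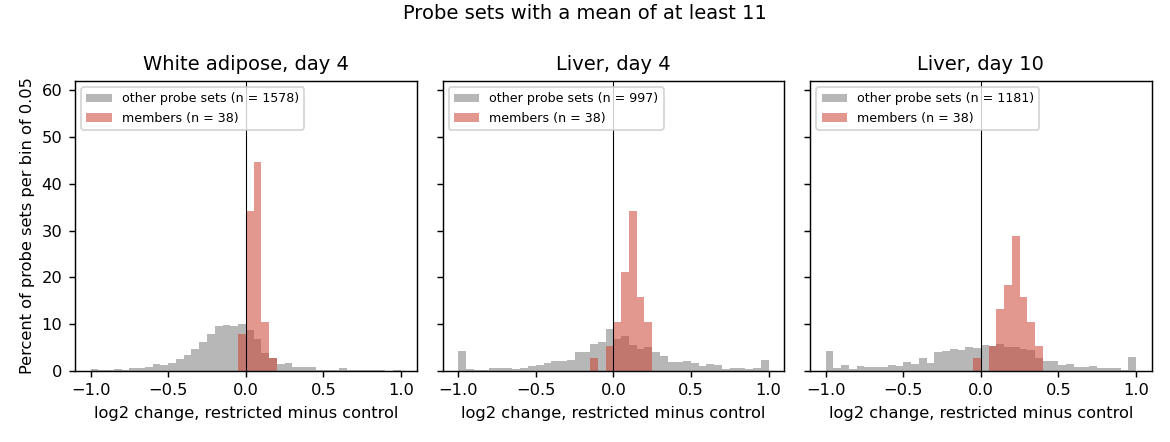
Distribution of the log2 change (restricted minus control) of probe sets averaging 11 or more, in percent of probe sets per bin of 0.05, for the 38 members at that level (red) and all other such probe sets (grey); the outermost bins hold everything beyond 1 log2 unit. The members form a narrow peak above 0 in each set, with medians of 0.062 for the adipose set, 0.11 for the day 4 liver set and 0.22 for the day 10 liver set.

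The increase was present array by array. The median over the 45 members of the difference from the control mean was -0.035, 0.030, -0.019, 0.035 and 0.0063 in control livers 1 to 5 and 0.19, 0.13, 0.20, 0.21 and 0.28 in restricted livers 1 to 5. All 5 restricted livers lay above all 5 controls. Between 36 and 42 of the 45 members were above their control mean in each restricted liver. In 29 members (64.4%) the lowest restricted array was above the highest control, against 5.88% of all probe sets and 29.7% of the bright ones, where the members' share was 76.3%.

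**Figure D2:**
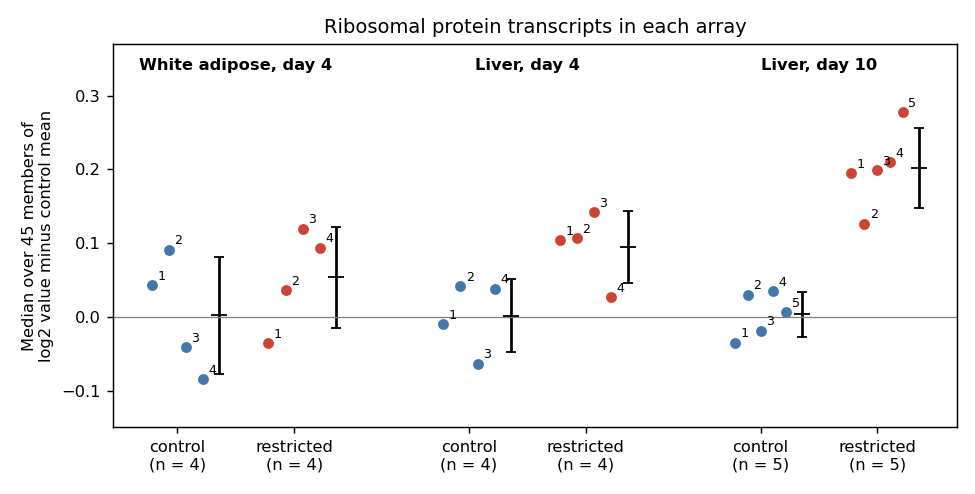
Each point is 1 array: the median over the 45 members of the log2 value minus the mean of the control arrays of that set, with replicate numbers, and the group mean and SD to the right. Restricted livers at day 10 lie between 0.13 and 0.28, above all controls, whereas the groups overlap at day 4 in both tissues.

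Rpl12 and Rpl5 changed most. Rpl12, which together with the stalk proteins forms the docking site of translation factors, read 12.79, 12.93, 12.78, 12.89 and 12.78 in the control livers and 13.17, 13.02, 13.16, 13.34 and 13.47 in the restricted livers. The groups did not overlap, but restricted rats were spread over a wider range than controls. The change was 0.40 (SE 0.080), or 31.9% (limma, adjusted p = 0.0110). Rpl5, which with Rpl11 carries 5S ribosomal RNA into the large subunit, read 13.34, 13.49, 13.40, 13.48 and 13.50 in controls and 13.85, 13.77, 13.83, 13.82 and 13.91 in restricted rats. Its lowest restricted array was well above its highest control, and the change was 0.39 (SE 0.037; limma, adjusted p = 0.000244). Its partner Rpl11 rose by 0.18 (SE 0.022; limma, adjusted p = 0.000914), so both protein partners of 5S RNA were called.

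Among the next largest changes were Rpl24, Rpsa, Rpl3 and Rps15. Rpl24, a late-joining protein at the face between the subunits, read 13.37, 13.32, 13.46, 13.40 and 13.50 in controls and 13.79, 13.63, 13.70, 13.73 and 13.80 in restricted rats, a change of 0.32 (SE 0.043; limma, adjusted p = 0.00139). Rpl3, which reaches toward the peptidyl transferase centre, read 13.72, 13.83, 13.76, 13.82 and 13.79 in controls and 14.10, 14.04, 14.13, 14.06 and 14.18 in restricted rats, a change of 0.32 (SE 0.032; limma, adjusted p = 0.000344). In both genes every restricted liver was above every control. Rpsa, a small-subunit protein also known as the laminin receptor, read 12.14, 12.20, 12.01, 12.14 and 12.15 in controls and 12.41, 12.37, 12.46, 12.47 and 12.52 in restricted rats, a change of 0.32 (SE 0.040; limma, adjusted p = 0.000957). Rps15, which sits in the head of the small subunit near the decoding site, read 12.22, 12.33, 12.18, 12.34 and 12.28 in controls and 12.48, 12.44, 12.60, 12.65 and 12.71 in restricted rats, a change of 0.31 (SE 0.057; limma, adjusted p = 0.00822). Neither gene's groups overlapped, and the margin between them was narrower in Rps15 than in Rpsa. Rpl6, Rpl18, Rpl23 and Rpl27a, all structural proteins of the large subunit, followed with changes of 0.29, 0.28, 0.27 and 0.26, each without overlap.

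**Figure D3:**
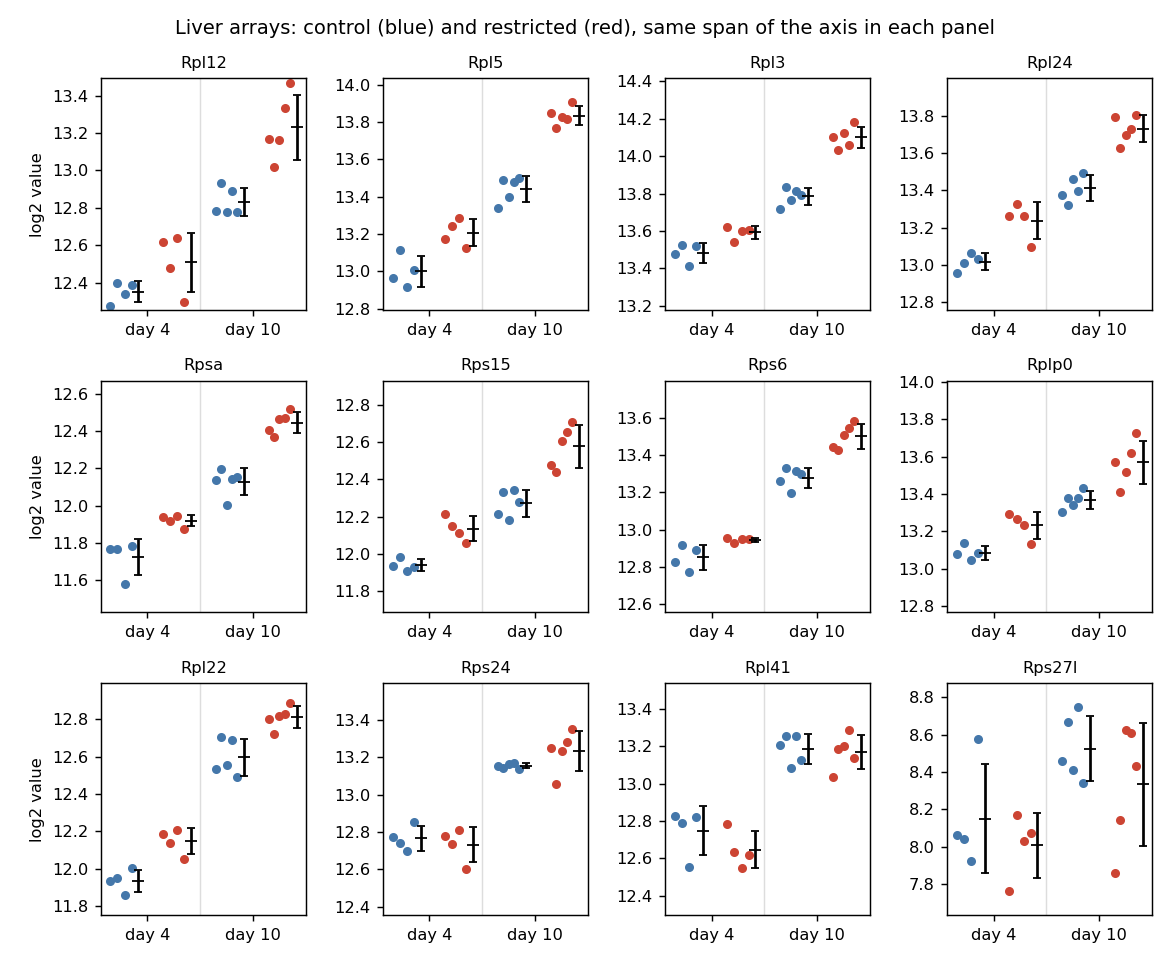
Log2 values of 12 members in each liver array, control in blue and restricted in red, with the group mean and SD; the sets of day 4 and day 10 were pre-processed apart, so levels are to be compared within a day only. At day 10 the groups separate in Rpl12, Rpl5, Rpl3, Rpl24, Rpsa, Rps15, Rps6 and Rpl22, and they overlap in Rplp0, Rps24, Rpl41 and Rps27l.

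The members were also grouped by position or role, with no test between the groups, and their counts are to be read against the 71.1% of all members called higher. Of 6 proteins that line or surround the exit tunnel of the nascent chain, 5 rose, Rpl19 by 0.25, Rpl23a by 0.23, Rpl26 by 0.20, Rpl4 by 0.17 and Rpl35 by 0.14, while Rpl39 was near background. Rpl35 was the 1 called member that lost its call with scan day as a block (limma, adjusted p = 0.0740). All 3 proteins of the decoding site and the mRNA channel rose, Rps23 by 0.18, Rps3 by 0.16 and Rps9 by 0.14. Rplp0, the base of the stalk, read 13.31, 13.38, 13.34, 13.38 and 13.43 in controls and 13.57, 13.41, 13.52, 13.62 and 13.73 in restricted rats, and rose by 0.20 (SE 0.053; limma, adjusted p = 0.0411) although 1 restricted array lay below the highest control. Rps6, the ribosomal substrate of S6 kinase, rose by 0.22 (SE 0.037; limma, adjusted p = 0.00416) with no overlap. Of 5 members on a list, not a complete one, of genes mutated in human Diamond-Blackfan anaemia, a failure of red cell formation, Rpl5, Rpl11 and Rpl26 rose, and Rpl35a and Rps24 were not called.

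Of the 13 members not called at day 10, 6 were bright, 6 were near background and 1, Rps27l, lay between. Rpl41, one of the shortest proteins known, read 13.21, 13.25, 13.08, 13.26 and 13.12 in controls and 13.04, 13.18, 13.20, 13.29 and 13.13 in restricted rats. The groups were mixed throughout, with a change of -0.017 (SE 0.051; limma, adjusted p = 1.00). Rps24 read 13.15, 13.14, 13.17, 13.17 and 13.14 in controls and 13.25, 13.06, 13.23, 13.28 and 13.35 in restricted rats. Its controls were nearly identical, but restricted rat 2 lay below all of them, and the change of 0.079 (SE 0.047) was not called (limma, adjusted p = 0.463). Rps29, Rps16 and Rpl37a showed changes of 0.060 (SE 0.027), 0.11 (SE 0.060) and 0.13 (SE 0.044), with limma adjusted p-values of 0.271, 0.405 and 0.0986. Rpl35a had a change of 0.22 (SE 0.082) as large as many called members, but read 11.77 to 12.14 in controls and 12.02 to 12.33 in restricted rats and was not called (limma, adjusted p = 0.163). Rps27l, a relative of Rps27 that is induced by p53 in human cells, read 8.34 to 8.75 in controls and 7.86 to 8.62 in restricted rats, with a change of -0.19 (SE 0.16; limma, adjusted p = 0.724).

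**Figure D4:**
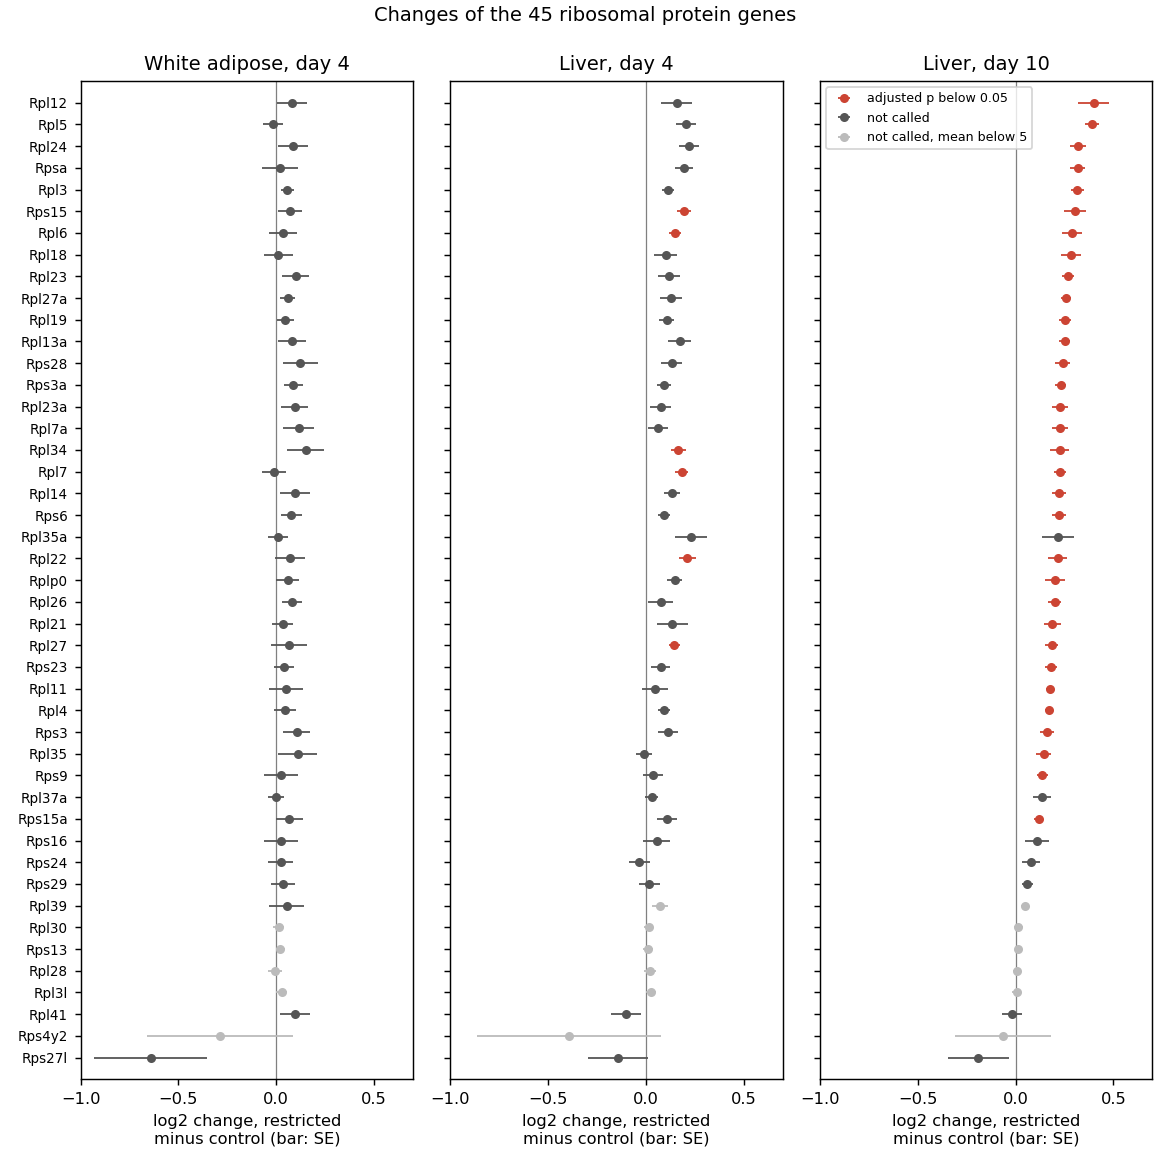
Log2 change of each member (restricted minus control, bars SE) in the 3 sets, ordered by the change in liver at day 10; red points have an adjusted p below 0.05, light grey points a mean below 5. The adipose panel has 0 called members, the day 4 liver panel 6 and the day 10 liver panel 32, all of them above 0.

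The day 10 arrays had been scanned on 2 days, 3 controls and 2 restricted on the first and 2 controls and 3 restricted on the second. With scan day as a block 31 members were called, all but Rpl35 of the 32, and all 32 called members were higher in restricted rats on each day taken alone. The 32 had been called on these same arrays, so their shared direction on each day is no separate support. Within the first day the median change was 0.16, with 36 of 45 members higher and 0 called (27 at an unadjusted p under 0.05), and within the second day it was 0.22, with 45 of 45 higher and 9 called. Rpl12 differed by 0.26 on the first day and by 0.49 on the second, while Rpl5 differed by 0.40 and 0.36. Leaving out any 1 rat left 28 to 32 members called, and 27 of the 32 were called every time.

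Second probe sets of the same genes gave a mixed picture. All 3 probe sets for Rpsa were called at day 10, with changes of 0.32, 0.35 and 0.39. The dimmer probe set of Rpl3 showed 0.13 (limma, adjusted p = 0.0859) against 0.32 for the brighter one, and that of Rpl7 showed 0.27 (limma, adjusted p = 0.272) against 0.23 for the brighter one, which was called. The second probe sets of Rpl14 and Rps24 were near background in liver. Of the 36 probe sets with several symbols 24 were called higher and 0 lower, with a median change of 0.18.

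In liver at day 4 the members were slightly higher after feed restriction, and few were called. Of the 45 members 40 were higher and 5 lower, with a median change of 0.10 (7.25%) against 0.0091 over all probe sets. Of all 31042 probe sets 21458 were higher, but of the 10537 averaging 5 or more 5468 were higher and 5069 lower. Among bright probe sets 562 of 1035 were higher, and among the 38 bright members 35 were. Rpl22, Rps15, Rpl7, Rpl34, Rpl6 and Rpl27 were called higher and 0 members lower, where 2.94% of all probe sets were called higher and 2.64% lower. Among bright probe sets, averaging 11 or more, 19.5% were called higher and 13.1% lower, and the 6 members make up 15.8% of the 38 members at that level, so this count lies near the background of equally bright probe sets and does not single out the members. The groups did not overlap in 14 members (31.1%), restricted above control, against 5.81% of all probe sets and 26.3% of the bright ones, where the members' share was 36.8%. At an unadjusted p under 0.05, 19 members (42.2%) were higher and 0 lower, against 15.2% of all probe sets and 58.3% of the bright ones in either direction.

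Rpl22, an RNA-binding protein of the large subunit, read 11.93, 11.95, 11.86 and 12.00 in the 4 controls and 12.19, 12.14, 12.21 and 12.05 in the 4 restricted rats, a change of 0.21 (SE 0.043; limma, adjusted p = 0.0352). Rps15 read 11.94, 11.98, 11.91 and 11.93 in controls and 12.22, 12.15, 12.11 and 12.06 in restricted rats, a change of 0.20 (SE 0.036; limma, adjusted p = 0.0221). In both genes restricted rat 4 was the lowest of its group yet above all controls. Rpl7, a large-subunit protein that contacts 5S RNA, read 13.21, 13.22, 13.19 and 13.21 in controls and 13.39, 13.46, 13.42 and 13.30 in restricted rats, a change of 0.18 (SE 0.033; limma, adjusted p = 0.0226). Rpl34, Rpl6 and Rpl27, structural proteins of the large subunit, changed by 0.17 (SE 0.037), 0.15 (SE 0.031) and 0.15 (SE 0.026), again without overlap. Rpl5, the gene with the clearest change at day 10, read 12.97, 13.11, 12.92 and 13.01 in controls and 13.17, 13.24, 13.29 and 13.13 in restricted rats at day 4, with no overlap and a change of 0.21 (SE 0.051) that was not called (limma, adjusted p = 0.0706).

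The calls at day 4 depended on single rats. Without restricted rat 3, 0 members were called, and without restricted rat 4, whose member median of 0.027 was the lowest of its group beside 0.10, 0.11 and 0.14 in restricted rats 1 to 3, 10 were called. Leaving out control rat 1, control rat 3 or restricted rat 2 gave 1 call each, and leaving out control rat 4 or restricted rat 1 gave 2. None of the 6 genes was called in every one of these fits, although each stayed higher in all of them. Centring each array on its median ended all 6 calls, while the median change of the members remained 0.091. Of the 36 probe sets with several symbols 5 were called higher and 0 lower. The scanner records used here do not cover this set.

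In adipose tissue no ribosomal protein gene was called. Of the 45 members 39 were higher and 6 lower in restricted rats (19870 of 31042 probe sets and 496 of 1616 bright ones were higher), with a median change of 0.054 (0.018 over all probe sets), limma adjusted p-values of 0.684 to 0.984, and 0 members at an unadjusted p under 0.05, where 7.69% of all probe sets and 28.6% of the bright ones passed that mark. Only 0.0161% of all probe sets were called higher and 0.0387% lower, so calls were rare for any gene in this set. The bright probe sets had a median change of -0.10 and 18.6% of them lay wholly below the controls, while the 38 members at that level had a median change of 0.062 and 0 of them did.

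The largest positive changes in adipose tissue were those of Rpl34, Rps28 and Rpl7a, at 0.15 (SE 0.094), 0.12 (SE 0.088) and 0.12 (SE 0.079). Leaving out 1 array moved them to 0.075 to 0.21, 0.048 to 0.17 and 0.068 to 0.16, lowest without control 4 and highest without control 2 in each gene. Rpl34 read 13.87, 14.00, 13.80 and 13.59 in controls and 13.82, 14.02, 13.96 and 14.06 in restricted rats, so the groups overlapped and control 4 was low. Rps27l had the lowest change, reading 7.92, 6.91, 7.27 and 8.02 in controls and 7.34, 6.52, 6.73 and 6.96 in restricted rats, -0.64 (SE 0.29; limma, adjusted p = 0.684). Rps4y2 read 2.13, 2.50, 2.50 and 3.96 in controls and 2.44, 2.51, 2.50 and 2.49 in restricted rats, and its change of -0.29 rests on control 4, without which it was 0.11. Rpl5 read 14.06, 14.09, 13.91 and 14.10 in controls and 13.96, 14.01, 14.10 and 14.02 in restricted rats, a change of -0.018 (SE 0.052) whose sign turned without control 4, without restricted rat 1 and under quantile normalization. The member median of single arrays ran from -0.084 to 0.091 in controls and from -0.036 to 0.12 in restricted rats. All adipose arrays were scanned on the same day, and a fluidics protocol is named in the records of restricted rats and not in those of controls.

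The liver changes at day 4 and day 10 were then compared. All 6 members called at day 4 were also called at day 10, and 26 were called at day 10 only. Of the 38 members averaging 11 or more at day 10, which include these 6, 84.2% were called there. With a share that high, the overlap does not by itself link the 2 sets. Of the 39 members with a mean of at least 5 in both liver sets, 37 had a larger change at day 10. Across these 39 genes the changes of the 2 sets, which have no rats in common, correlated with a Pearson r of 0.819, a description over genes that share their arrays and are not independent. The 39 include the relative Rps27l, which had the lowest change of them in both sets (-0.14 and -0.19), and no r without it is given. In the direct test of the difference between the sets 0 members were called, where 0.654% of all probe sets were, and 13 had an unadjusted p under 0.05, all with the larger change at day 10 (8.4% of all probe sets passed that mark in either direction). Rpl3 had the lowest p-value, with a difference of 0.20 (95% interval 0.11 to 0.30; limma, adjusted p = 0.0584), and Rpl12 differed by 0.24 (95% interval -0.0062 to 0.49; limma, adjusted p = 0.619). The other extremes were Rps4y2 at 0.33 (SE 0.52), Rps27l at -0.049 (SE 0.23) and Rpl39 at -0.028, which had limma adjusted p-values of 1.00. No single member had a difference between the liver sets that passed the test.

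Between adipose tissue and liver at day 4 the difference of the changes was also called for 0 members, against 3.41% of all probe sets, with a median of -0.032. At an unadjusted p under 0.05 there were 3 members, all with the smaller change in adipose tissue, against 13.0% of all probe sets. Rpl5 differed by -0.22 (95% interval -0.39 to -0.063; limma, adjusted p = 0.151) and Rps27l by -0.50 (95% interval -1.24 to 0.24; limma, adjusted p = 0.694). Rpl41 differed the other way by 0.20 (95% interval -0.047 to 0.44; limma, adjusted p = 0.556), followed by Rpl35 at 0.12.

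Other genes of translation were taken from fixed lists, with counts at day 10 first. These counts are to be read against the share of all probe sets called, which was 5.82% higher and 5.36% lower at day 10 and 2.94% higher and 2.64% lower at day 4, and bright probe sets were called more often (32.2% higher at day 10 and 19.5% at day 4). No test of a list against other genes was run. Of 14 genes for elongation factors and other proteins with TOP mRNAs, 11 rose and 0 fell, and at day 4 the counts were 9 and 0. Eif4b, an initiation cofactor that is a target of S6 kinase, rose by 0.94 (SE 0.10), from 9.73 ± 0.20 (SD, n = 5) to 10.67 ± 0.14 (SD, n = 5), and by 0.89 (SE 0.096) at day 4. Eef1d, Eif3h and Naca, a subunit of the elongation factor 1 complex, a subunit of initiation factor 3 and a chaperone of nascent chains, rose by 0.65, 0.64 and 0.58. In adipose tissue 0 of the 14 were called.

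Mitochondrial ribosomal proteins, which are encoded by separate genes and serve the ribosomes of the organelle, were called in both directions at day 10. Of 73 genes 21 rose and 2 fell at day 10, with a median change of 0.10, and 6 rose and 0 fell at day 4, with a median of 0.037. Mrps35, Mrpl58 and Mrpl2 rose by 0.53, 0.48 and 0.46, and Mrps30 fell by 0.46. In adipose tissue their median change was -0.24, with 0 called and 25 of 73 at an unadjusted p under 0.05 (7.69% of all probe sets), whereas the median of the cytosolic members was 0.054.

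**Figure D5:**
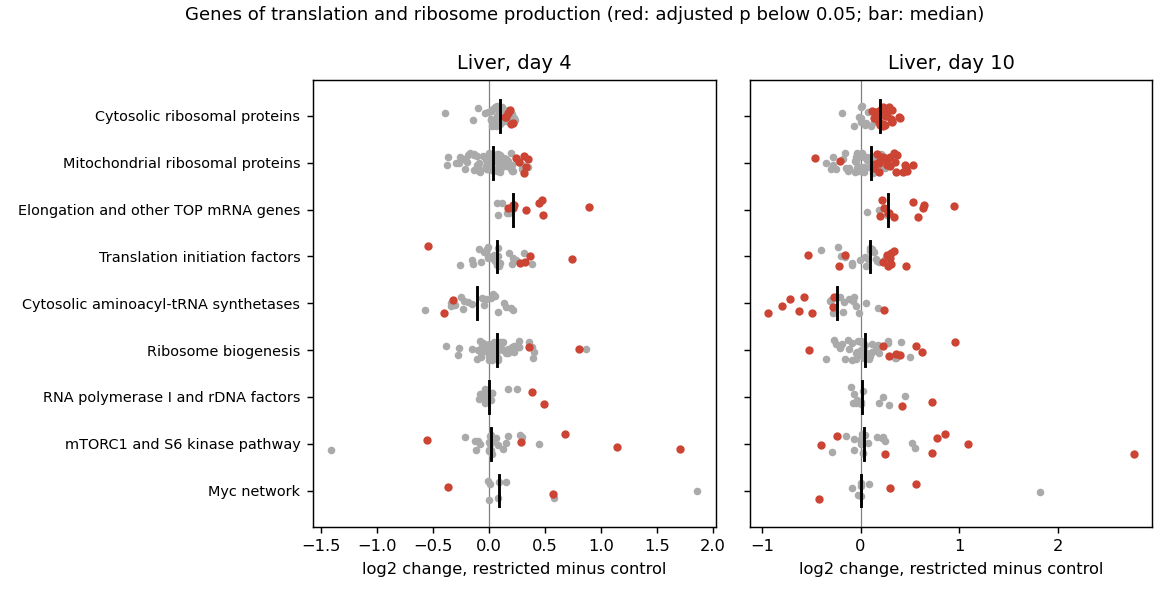
Log2 change (restricted minus control) of every gene in lists of translation and ribosome production, in liver at day 4 and day 10; red points have an adjusted p below 0.05 and bars mark list medians. Cytosolic ribosomal proteins and other TOP mRNA genes have called genes above 0 only, and tRNA synthetases mostly below 0.

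Cytosolic aminoacyl-tRNA synthetases, the enzymes that charge tRNAs with amino acids, had more genes called lower than higher: of 22 genes 1 rose and 8 fell at day 10, with a median change of -0.24, and 0 rose and 2 fell at day 4. The remaining 13 at day 10 and 20 at day 4 were not called. Cars1, Aars1, Wars1 and Tars1, which charge the tRNAs for cysteine, alanine, tryptophan and threonine, fell by 0.94, 0.80, 0.72 and 0.62. Of 29 initiation factors 8 rose and 3 fell at day 10, among them Eif2a, which rose by 0.46, and Eif4g3, a scaffold of the cap-binding complex, which fell by 0.53. Of 52 ribosome biogenesis genes 7 rose and 1 fell at day 10, with a median change of 0.049. Nop53, a factor of large-subunit assembly, rose by 0.95 (SE 0.066) at day 10 and by 0.80 (SE 0.096) at day 4, Utp14a and Nob1, factors of small-subunit maturation, rose by 0.62 and 0.56 at day 10, and Bop1, a factor of large-subunit RNA processing, fell by 0.53. Of 14 genes for RNA polymerase I and factors of ribosomal RNA transcription, Polr1d and Rrn3 rose by 0.72 and 0.42 at day 10 and were the 2 called at day 4 as well.

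In the mTORC1 and S6 kinase list 6 of 28 genes rose and 2 fell at day 10. The largest change was that of Eif4ebp3, a relative of the translational repressor 4E-BP1, from 9.52 ± 0.20 (SD, n = 5) to 12.30 ± 0.95 (SD, n = 5), a rise of 2.78 (SE 0.41; limma, adjusted p = 0.00223). Eef2k, the kinase that inhibits elongation factor 2, Deptor, an mTOR inhibitor, and Sesn2, an inhibitor of mTORC1 under amino acid shortage, rose by 1.09, 0.86 and 0.77. At day 4 Eif4ebp3 and Deptor rose by 1.71 and 1.15. In the Myc network Mxi1, an antagonist of Myc, rose by 0.56, Max, the partner of both, rose by 0.30 and Mxd4, another antagonist, fell by 0.42, out of 10 genes. In adipose tissue 0 genes of any of these lists were called.

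Some markers of other cell types were lower in the restricted livers in which ribosomal protein mRNAs were higher. Of 12 macrophage and Kupffer cell markers 10 fell and 0 rose at day 10, and their summed linear level was 13845 to 18784 in control and 6257 to 9253 in restricted livers. At day 4, 6 fell and 0 rose, with summed levels of 8549 to 10037 and 4942 to 6659. Lyz2, a lysozyme of macrophages, fell by 1.72 at day 10. Of 6 red blood cell markers 3 fell at day 10, with summed levels of 6300 to 15275 in control and 1164 to 3909 in restricted rats. Of 13 lymphocyte markers 2 fell, with 4188 to 5688 and 1983 to 2484, and 11 were not called. The median change of the lymphocyte list was 0.00014, and 4 of the 13 averaged 5 or more. At day 4, 0 genes of either list were called, and summed levels overlapped between control and restricted rats. Of all probe sets 5.36% were called lower at day 10 and 2.64% at day 4. Of 11 hepatocyte markers 1 rose and 4 fell at day 10, and of 9 endothelial markers and 17 cell cycle genes 0 were called in either liver set. A mean of at least 5 was reached by 5 of the 9 endothelial markers at day 4 and by 4 at day 10. Only 1 of the 17 cell cycle genes reached it in each set, so the lack of calls says little about the dimmer genes. Pnpla2, a triglyceride lipase on the adipocyte list, rose by 1.71 at day 10, and Myh1, on the skeletal muscle list, rose by 0.15. No marker was at 0 on the log2 scale, but several of these lists held genes with a mean under 5. The part of these cell types in the changes of ribosomal protein genes was not tested.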

How the data were processed

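Per the labels, Affymetrix rat expression arrays were hybridised with RNA of 1 rat each. In the tables the authors deposited, each number is a log2 expression level, per the labels. The submitters' processing notes name R 2.4.1, affy 1.12.2, RMA and GCRMA 2.6.0, without saying which of RMA and GCRMA gave the values. The design text has the 3 sets handled apart, so levels were compared within a set only. The deposited log2 values were used unchanged.

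Of 31099 probe sets 57 controls were left out. Each set was fitted with limma 3.58.1 (R 4.3.3; lmFit and eBayes, two-sided, Benjamini-Hochberg over 31042 probe sets, threshold 0.05), and differences between sets in 1 fit of both. P-values treat arrays as separate rats, and 4 or 5 arrays per group limit the precision. The members and lists were chosen with earlier results of these data known. Named genes are up to 10 called members with the largest rise or fall per comparison (the 3 highest and lowest where under 3 were called), members of role groups, up to 4 called genes per other list and the 2 largest differences between sets; those added for contrast (bright members not called, Rpl5 at day 4 and Rpl3 in the liver difference) were chosen after their values were seen. Marker levels are sums of 2 to the power of the log2 value.

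In 5 simulations with 200 changed probe sets the fit recovered 77.2%, 89.8% and 92.6% of log2 changes of 1 in adipose tissue, liver at day 4 and liver at day 10, and 53.0%, 73.0% and 76.8% of changes of 0.5, with 11.4, 8.2 and 8.2 false calls on average. Changes smaller than 0.5 were not simulated, and the largest change of a called member was 0.40. These rates therefore do not give the recovery of changes as small as those of the called members. Alternatives were a variance trend, centring, quantile normalization, a filter at a mean of 5, other probe sets per gene, members without relatives, scan day, replicate number and leaving out each array. Python 3.11.15 with pandas 2.3.3, numpy 2.4.6, scipy 1.17.1 and matplotlib 3.10.9 made tables and figures.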

Additional observations from a re-analysis of the deposited data

Results flagged for a closer look

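In 13 of 276 groups of 4 or 5 arrays (45 members and the median over them, in 6 groups) the highest or lowest array stood far from the rest, where chance alone gives about 1 in 20. In adipose controls these were Rpl3 (highest 14.65), Rpl3l (lowest 2.55) and Rps13 (lowest 2.50), and in restricted adipose tissue Rps6 (lowest 14.09). In liver at day 4 the low arrays among controls were those of Rpl35a (11.03), Rpl41 (12.55) and Rpsa (11.58). In restricted livers at day 4 they were Rpl35a (highest 11.60), Rps28 (lowest 12.53) and Rps29 (lowest 14.45). In liver at day 10 they were Rpl27 in controls (lowest 13.37), and Rps15a (lowest 12.63) and Rps4y2 (highest 3.06) in restricted rats. The low controls of Rpl35a, Rpl41 and Rpsa at day 4 all came from control rat 3, and the low restricted arrays of Rps28 and Rps29 from restricted rat 4.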

How the results depend on the processing

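In liver at day 10 the 32 calls became 27 to 31 under the variance trend, centring, quantile normalization, the filter, the dimmest probe set, scan day as a block and the replicate block, and stayed at 32 with all probe sets averaged and without the relatives. Leaving out 1 array gave 28 to 32, and the arrays of scan day 1 and scan day 2 alone gave 0 and 9, in fits of 5 arrays each. In liver at day 4 the 6 calls became 1 under the variance trend, 0 with centred arrays, 2 under quantile normalization and 0 under the replicate block, and 0 to 10 when 1 array was left out; the filter left 4 of 39 and the dimmest probe set 5. In adipose tissue 0 were called in every fit. The differences between sets gave 0 calls, but 0 to 2 for each when 1 array was left out, namely 2 without control 3 of liver at day 4 and 1 without restricted rat 2 at day 10 for the liver difference, and 2 without adipose control 3 for the tissue difference. Where the direction turned, in adipose tissue, Rps4y2 was 0.11 without control 4 (range -0.50 to 0.11 over arrays left out), and Rpl5 was 0.039 under quantile normalization and -0.061 to 0.0033 with 1 array left out (turning without control 4 and without restricted rat 1). The cause was not tested. The main fits did not pair rats by replicate number. Deviations from the group mean, over probe sets averaging 5 or more, correlated at -0.39 to 0.23 between same-numbered control and restricted arrays. With so few arrays these values cannot settle whether rats were paired. The replicate block left 0, 0 and 27 calls in adipose tissue and liver at days 4 and 10. Median changes of members stayed within 0.024 to 0.11, 0.068 to 0.12 and 0.16 to 0.22 in the 3 sets under every alternative. Probe sets near background limit what can be said of Rpl28, Rps13, Rpl30, Rpl3l, Rps4y2 and, in liver, Rpl39.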
